A study of Mus musculus with 24 samples.

Results

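The genes followed are 10 genes of the gas-exchange surface of the mouse lung, 6 of them products of alveolar type II cells (Sftpa1, Sftpb, Sftpc, Sftpd, Abca3 and Lamp3) and 4 of them markers of alveolar type I cells (Ager, Aqp5, Pdpn and Hopx). They were chosen by name, and together they make up 10 of the 27401 genes the array represented and 10 of the 20409 genes tested. The gene names printed on the array found 9 of them. Hopx carries its older name, Hod, on this array and was matched through its RefSeq accession.

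RNA from shock-frozen mouse lung had been hybridised 24 days after irradiation, in 12 groups of 2 biological replicates, on 24 single-colour arrays. Unirradiated lungs came from untreated mice and from mice given Su, Imatinib or Ly, or Ly together with Su (Ly+Su) or with Imatinib (Ly+Imatinib). Irradiated lungs came from mice given no drug (the group Irradiation) and from mice given each of the same drugs or pairs, which are named Irradiation+Su and so on. Imatinib is a tyrosine kinase inhibitor. The labels leave Ly and Su unexpanded, and the strain, age and sex of the animals, the doses and the drug schedule are not given in the sources used here. A group of 2 animals is a narrow basis for any of these conditions, and the samples were whole lung, so fewer alveolar cells and less RNA per cell cannot be told apart in any value given here.

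Pulmonary surfactant is a film of phospholipid and protein that keeps alveoli open at low lung volume. Type II cells synthesise it, store it in lamellar bodies and secrete it, and they also divide to replace type I cells after injury. Type I cells are the thin, flat cells across which gas diffuses, and they cover most of the alveolar surface. SP-B and SP-C are small hydrophobic proteins that spread the lipid film, whereas SP-A and SP-D are collectins, large water-soluble lectins of innate defence. The lung is a dose-limiting organ of thoracic irradiation, and injury to both alveolar cell types belongs to the classical description of radiation pneumonitis.

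Levels are log2 signals relative to the 75th percentile signal of the same array, so that a level of 0 equals that percentile. Differences are in log2 units, errors of differences are standard errors (SE) from limma, and a gene was called at a Benjamini-Hochberg adjusted p under 0.05 over all genes tested. Each of the 6 slides carried 4 arrays, all irradiated or all unirradiated, so slide and irradiation cannot be told apart. Each slide carried 1 pair of groups, namely no drug with Ly, Imatinib with Su, or Ly+Imatinib with Ly+Su. The 75th percentile signal was 2518 on the array Irradiation 1 and ranged from 703.6 to 1768 on the other 23 arrays. Irradiation 1 and its replicate correlated at r = 0.976 over the genes tested, and Irradiation+Ly+Imatinib 1 and its replicate at r = 0.968, the lowest value among the 12 replicate pairs. All 10 probes used for the tests were well above background on all 24 arrays. The 17 other type II markers and 19 other type I markers on the array were also above background on every array. So were 15596 of the 27401 genes the array represented, 8 of 9 cardiac muscle markers and 6 of 7 T cell markers. Detection on every array was thus common, so these counts do not test the lung label.

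**Figure D1:**
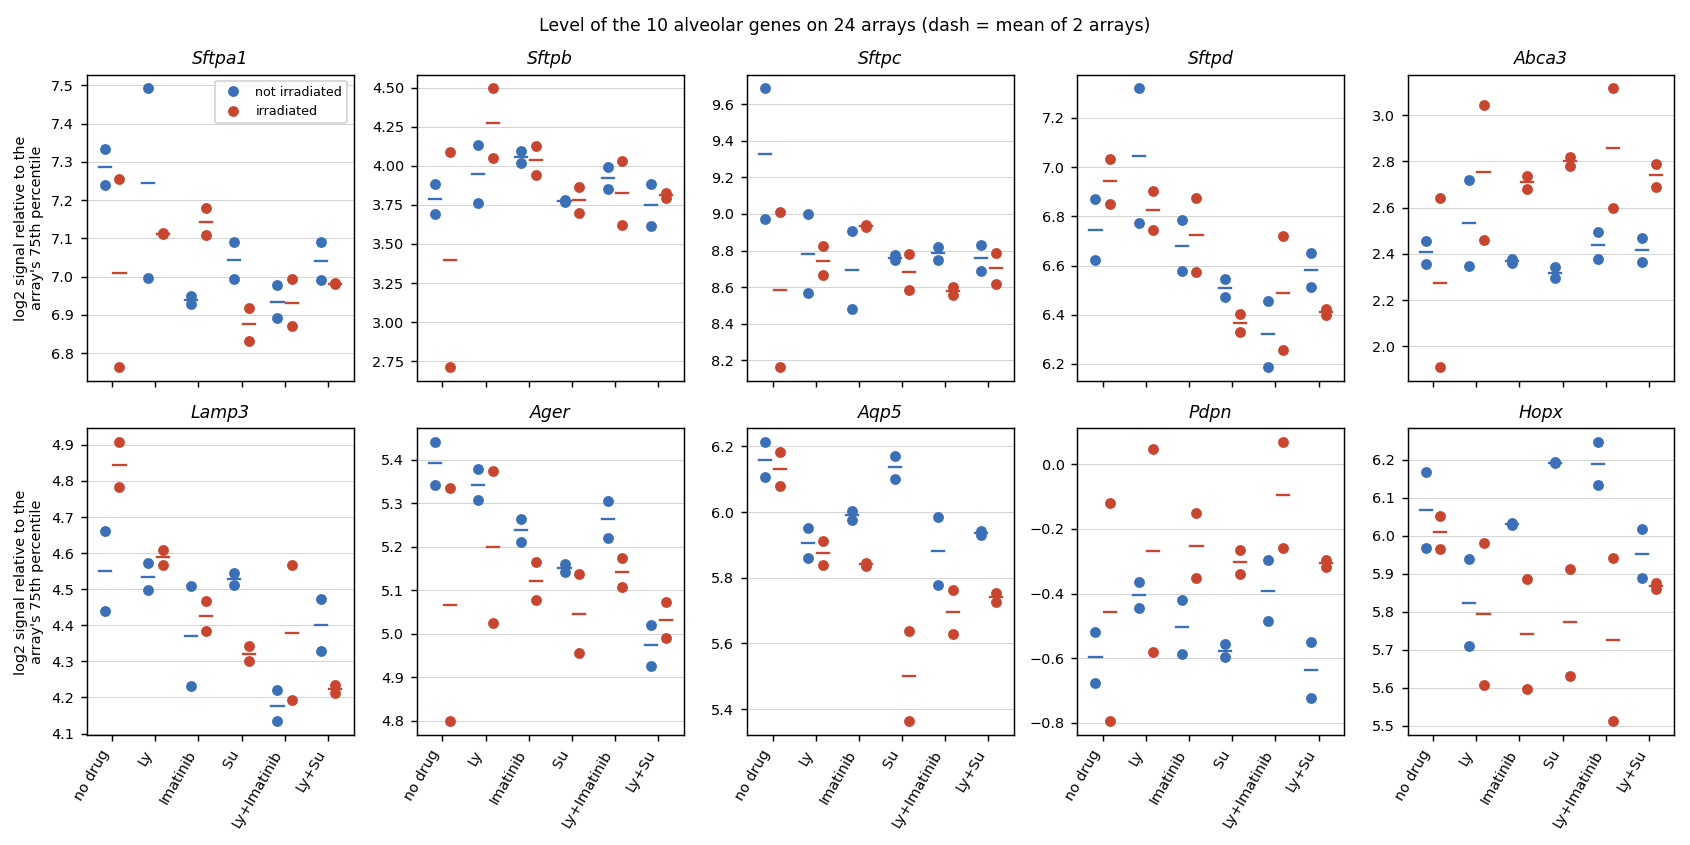
Each panel shows 1 gene. The vertical axis is the log2 signal relative to the 75th percentile of the array, the horizontal axis the drug arm, each point 1 array and each dash the mean of 2 arrays, with unirradiated lungs in blue and irradiated lungs in red. Abca3 and Pdpn lie higher in red than in blue in 5 and in 6 of 6 arms by their means, Aqp5 and Hopx lie lower in 6 of 6, and the array Irradiation 1 is the lowest of all 24 for Sftpa1, Sftpb, Sftpc, Abca3, Ager and Pdpn.

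Over the 6 arms, irradiated lungs had higher Abca3 and Pdpn and lower Aqp5 and Hopx than unirradiated lungs, each by less than 1.25-fold. None of the 4 surfactant protein genes passed the test, nor did Lamp3 or Ager. Thus 4 of the 10 genes were called, 2 in each direction, where 32.8% of all genes tested were called in this comparison, 16.4% higher and 16.4% lower. The share among the alveolar genes is near that background and is not a result about them. The 10 differences had a median of -0.05, against 0.01 over all genes tested.

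The lamellar body gene Abca3 encodes the lipid pump that loads phospholipid into lamellar bodies. Its level ranged from 2.30 to 2.72 with a median of 2.37 on the 12 unirradiated arrays, and from 1.91 to 3.12 with a median of 2.71 on the 12 irradiated arrays. The lowest irradiated value, 1.91, belonged to Irradiation 1, and without that array the irradiated values began at 2.46, inside the unirradiated range. The averaged difference was 0.27 ± 0.09 (SE; 12 against 12 arrays; limma adjusted p = 0.0365), a 1.21-fold higher signal. The means were higher with irradiation in 5 of 6 arms. Without Irradiation 1 the difference was 0.34 ± 0.08 (limma adjusted p = 0.00532). A second Abca3 probe, also above background on all arrays, gave 0.27 ± 0.05 (limma adjusted p = 0.000786, every probe tested). The remaining Abca3 probes were above background on 18 arrays and on 5 arrays, and differed by 0.45 ± 0.20 and by -0.08 ± 0.31 in that order, neither called by limma. The tested probe was called in 8 of the 24 fits that each left out 1 array, in which its difference ranged from 0.21 to 0.34 and its adjusted p reached 0.073.

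Lamp3 encodes a lysosome-related membrane protein found in lamellar bodies and also in mature dendritic cells. Over the 6 arms it differed by 0.04 ± 0.05 between irradiated and unirradiated lungs (limma adjusted p = 0.624). Its levels lay between 4.13 and 4.66 without irradiation and between 4.19 and 4.91 with it. Other Lamp3 probes above background on all 24 arrays gave 0.26 ± 0.10 and 0.17 ± 0.08. Neither was called (limma adjusted p of 0.0676 and 0.104, every probe tested).

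Among the surfactant protein genes the averaged differences of Sftpb and Sftpd were smaller than their errors. Those of Sftpa1 and Sftpc were larger than theirs, and none was called. Sftpa1 differed by -0.07 ± 0.06, Sftpb by -0.02 ± 0.13, Sftpc by -0.15 ± 0.10 and Sftpd by -0.02 ± 0.08, with limma adjusted p-values of 0.412, 0.923, 0.303 and 0.856. The 95% intervals reached from -0.21 to 0.07 for Sftpa1, from -0.29 to 0.25 for Sftpb, from -0.37 to 0.08 for Sftpc and from -0.19 to 0.15 for Sftpd. Differences within these intervals therefore remain compatible with the values of the 24 arrays. Without Irradiation 1 the Sftpb difference was 0.10 ± 0.07, of opposite sign and still not called. A second Sftpa1 probe, left out because 1 array carried an outlier mark for it, averaged 3.57 ± 0.38 (SD, n = 11) on irradiated and 3.80 ± 0.27 (SD, n = 12) on unirradiated arrays.

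The type I genes moved in different directions. Aqp5 encodes the water channel of the type I cell's apical membrane. It ranged from 5.78 to 6.21 with a median of 5.98 without irradiation and from 5.36 to 6.18 with a median of 5.80 with irradiation. The averaged difference was -0.20 ± 0.04 (12 against 12 arrays; limma adjusted p = 0.00307), a 1.15-fold lower signal, with lower means in 6 of 6 arms.

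Hopx encodes a small homeodomain protein without DNA binding of its own, expressed in type I cells and in cardiac muscle. It ranged from 5.71 to 6.25, with a median of 6.03, on unirradiated arrays, and from 5.51 to 6.05, with a median of 5.88, on irradiated ones. The averaged difference was -0.22 ± 0.07 (12 against 12 arrays; limma adjusted p = 0.0203), a 1.17-fold lower signal, again with lower means in 6 of 6 arms. In the same averaged comparison markers of cardiac muscle were lower too. Of 8 such genes tested, 3 fell (Myl7 at -1.29 ± 0.41, Tnni3 at -0.92 ± 0.26 and Myh7 at -0.51 ± 0.15), none rose and the median difference was -0.69, and the summed level of the list ran from 17 to 76.8 times the 75th percentile without irradiation and from 16.5 to 41.3 with it. With normexp 1 of the 8 fell. The part of cardiac RNA in the Hopx result was not tested.

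Pdpn encodes podoplanin, a mucin-like membrane glycoprotein of type I cells that lymphatic endothelium, mesothelium and some fibroblasts also make. It ranged from -0.72 to -0.30 with a median of -0.53 without irradiation and from -0.80 to 0.07 with a median of -0.28 with it. The averaged difference was 0.24 ± 0.09 (12 against 12 arrays; limma adjusted p = 0.0487), a 1.18-fold higher signal, with higher means in 6 of 6 arms. Of 11 fibroblast markers 3 rose (Col1a1 by 0.97 ± 0.16, Col3a1 by 0.78 ± 0.15 and Mfap4 by 0.43 ± 0.13) and 1 fell (Inmt, at -0.47 ± 0.14), the other 7 not being called, while with normexp 2 rose and none fell. Lymphatic markers split, Stab2 at 0.66 ± 0.10 and Lyve1 at -0.80 ± 0.12 among 6 tested, and their median relative to all genes was 0.01, or -0.03 with normexp. Of 7 mesothelial markers 2 fell, Upk3b (-0.33 ± 0.09) and Krt19 (-0.22 ± 0.06), and their median relative to all genes was -0.20, or 0.04 with normexp, where none was called. The summed levels were 242.7 to 346.5 without and 227.0 to 317.5 with irradiation for fibroblasts, 9.21 to 18.1 and 6.10 to 11.7 for lymphatic endothelium, and 33.8 to 55.4 and 25.8 to 50.2 for mesothelium, and their part in the Pdpn result was not tested. Pdpn sat close to the threshold. It was called in 4 of 24 fits that left out 1 array, with differences from 0.18 to 0.30, and a second probe gave 0.21 ± 0.08 (limma adjusted p = 0.0589).

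Ager encodes RAGE, a pattern-recognition receptor that in the healthy lung is concentrated on the basolateral membrane of type I cells. It ranged from 4.93 to 5.44 without irradiation and from 4.80 to 5.37 with it, and differed by -0.13 ± 0.06 (limma adjusted p = 0.133). The mean was lower with irradiation in 5 of 6 arms. Without Irradiation 1 the difference was -0.08 ± 0.05.

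The irradiated and unirradiated ranges overlapped for all 10 genes. With slide as a random block none of the 4 calls remained, although the differences were the same in size, and the smallest adjusted p among the 10 genes was 0.0628, for Aqp5. With slides averaged first, 3 against 3, the limma adjusted p of these 4 genes lay between 0.227 and 0.426, and 1 of 20409 genes was called. With both combination arms left out, Aqp5 was the only one of the 10 called (-0.21 ± 0.06, limma adjusted p = 0.0448).

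**Figure D2:**
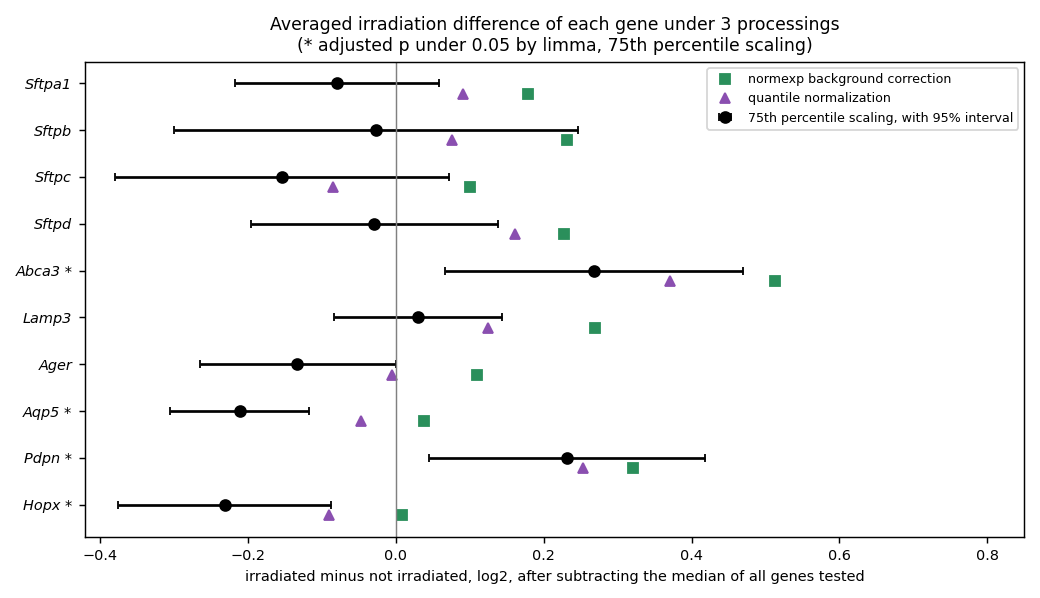
For each gene, the black point is the averaged irradiation difference in log2 units after subtraction of the median of all genes tested, with its 95% interval from limma, and the squares and triangles are the same after normexp background correction and quantile normalization. Abca3 and Pdpn stay to the right of 0 in the 3 processings, whereas Aqp5 and Hopx move from -0.21 and -0.23 to between -0.09 and 0.04.

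The differences depended on how bright a gene was. Genes in the lowest 25% of signal had a median averaged difference of 0.23, and the median fell through every band of signal to -0.13 among the brightest 5% of genes, of which 43.6% were called lower and 6.46% higher. After quantile normalization the band medians lay between -0.04 and 0.03. Aqp5 and Hopx both lay in the brightest 1% of genes, at ranks 161 and 153. Their differences were -0.07 and -0.11 after quantile normalization and -0.11 and -0.14 with normexp background correction, none of them called (limma adjusted p from 0.218 to 0.314). The falls of Aqp5 and Hopx are therefore calls of the 75th percentile scaling and the array median scaling only, among the 4 scalings run. Abca3, at the 88th percentile of signal, differed by 0.35 ± 0.10 after quantile normalization (limma adjusted p = 0.0189) and by 0.37 ± 0.09 with normexp (limma adjusted p = 0.0274), and Pdpn, at the 56th percentile, by 0.23 ± 0.08 (limma adjusted p = 0.0494) and 0.17 ± 0.09 (limma adjusted p = 0.241).

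The whole set of genes moved with 2 of the scalings. Array medians in place of the 75th percentile shifted the median of all genes to -0.12, and normexp shifted it to -0.15. Relative to that median, Abca3 was higher by 0.27, 0.27, 0.37 and 0.51 and Pdpn by 0.23, 0.23, 0.25 and 0.32 with the 75th percentile, the array median, quantile normalization and normexp. Aqp5 was at -0.21, -0.21, -0.05 and 0.04 and Hopx at -0.23, -0.23, -0.09 and 0.01 in the same order, so that both changed sign with normexp. Array medians gave 2032 genes called higher and 6528 lower, against 3356 and 3347 with the 75th percentile. With array medians Abca3 (0.15, limma adjusted p = 0.168) and Pdpn (0.11, limma adjusted p = 0.259) were not called, and 5 of the 10 genes were called lower, namely Aqp5, Hopx, Ager (-0.25), Sftpa1 (-0.20) and Sftpc (-0.27).

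**Figure D3:**
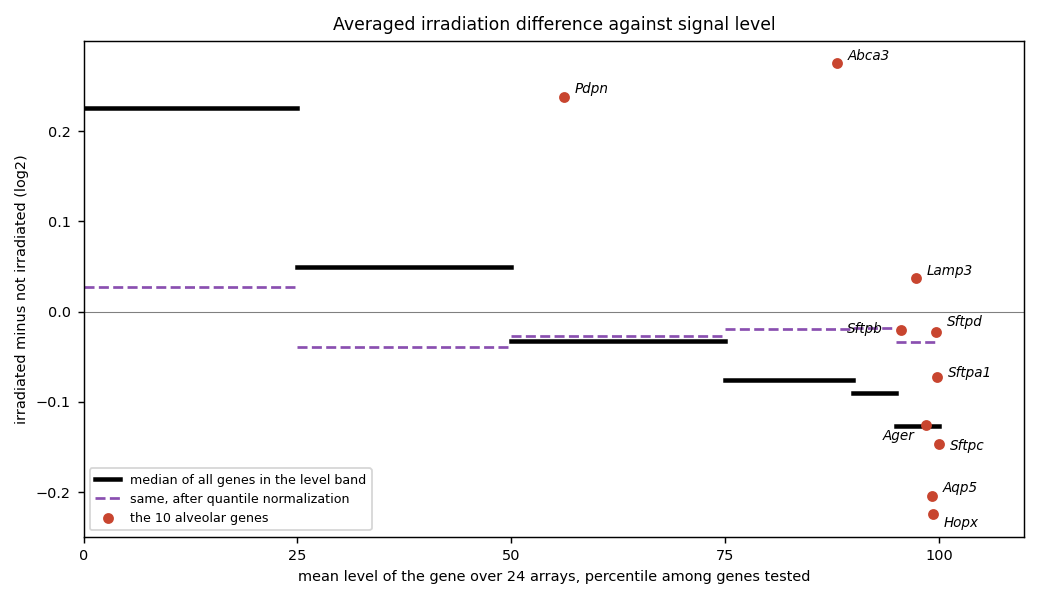
The horizontal axis is the mean signal of a gene over 24 arrays as a percentile among the 20409 genes tested, and the vertical axis the averaged irradiation difference in log2 units. Black bars are the medians of all genes in 6 bands of signal, dashed bars the same after quantile normalization, and red points the 10 genes, of which Abca3 and Pdpn lie above the bar of their band and Aqp5 and Hopx below it.

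The DNA before the transcription start is shown for the 4 genes called over the 6 arms, since Abca3 and Pdpn moved together and Aqp5 and Hopx against them, and for Sftpb as a surfactant gene for contrast. The sequences are RefSeq windows on GRCm38.p6, written 5′ to 3′ on the gene's strand and ending before the annotated gene begins. Capitals mark matches on either strand to CTCAAG, the core letters of sites of NKX2-1, the homeodomain factor that lung epithelium needs for surfactant gene expression, and to GGAATG, the core letters of sites of the TEAD factors, which act with YAP and TAZ in type I cells.
Abca3, chr17:24351773-24351920, plus strand: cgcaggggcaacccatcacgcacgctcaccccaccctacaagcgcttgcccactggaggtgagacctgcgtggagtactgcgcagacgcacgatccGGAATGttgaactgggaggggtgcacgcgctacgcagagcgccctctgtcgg
Aqp5, chr15:99590778-99591027, plus strand: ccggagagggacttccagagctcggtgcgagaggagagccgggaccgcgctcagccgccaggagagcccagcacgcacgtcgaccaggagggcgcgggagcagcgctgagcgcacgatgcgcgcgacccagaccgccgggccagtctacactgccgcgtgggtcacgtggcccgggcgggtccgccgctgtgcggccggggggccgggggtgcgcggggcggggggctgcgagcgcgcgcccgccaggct
Pdpn, chr4:143299565-143299814, minus strand: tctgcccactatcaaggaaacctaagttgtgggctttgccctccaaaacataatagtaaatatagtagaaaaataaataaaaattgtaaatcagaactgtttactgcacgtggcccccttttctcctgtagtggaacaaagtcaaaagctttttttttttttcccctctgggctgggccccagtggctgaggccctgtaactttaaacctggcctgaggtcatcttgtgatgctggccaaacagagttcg
Hopx, chr5:77115124-77115373, minus strand: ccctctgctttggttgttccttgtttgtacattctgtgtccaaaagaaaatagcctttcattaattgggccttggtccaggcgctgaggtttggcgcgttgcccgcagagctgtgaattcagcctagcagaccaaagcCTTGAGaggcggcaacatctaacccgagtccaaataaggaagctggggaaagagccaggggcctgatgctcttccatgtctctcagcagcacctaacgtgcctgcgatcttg
Sftpb, chr6:72304360-72304609, plus strand: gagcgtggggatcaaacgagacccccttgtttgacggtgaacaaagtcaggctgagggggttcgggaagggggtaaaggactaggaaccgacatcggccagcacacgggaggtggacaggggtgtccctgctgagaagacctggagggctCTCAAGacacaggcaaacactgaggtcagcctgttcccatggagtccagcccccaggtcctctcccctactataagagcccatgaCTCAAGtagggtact

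Windows of 250 bases were found for 8 of the 10 genes, Hopx with 2 of them; Sftpc and Sftpd are named only. A match to CTCAAG on either strand stood in 3 of the 9 windows, with 2 matches in Sftpb, 1 in Sftpa1 and 1 in the upstream window of Hopx, against 13.3% of all 32851 windows of the same length. A match to GGAATG stood in 2 of the 9, those of Abca3 and Lamp3, against 12.6% of all windows. The windows of Ager, Aqp5 and Pdpn and the second window of Hopx held neither set of letters. The GC content of the windows ran from 42.4% for Lamp3 to 78.4% for Aqp5. These are matches of letters, not bound sites.

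Irradiation was compared with no treatment in the groups that received no drug. None of the 10 genes was called by limma, 3 had an unadjusted p under 0.05, and 14.4% of all genes were called. Sftpc levels were 8.97 and 9.69 in untreated lungs and 8.16 and 9.01 in irradiated lungs, so the pairs overlapped, and the difference was -0.74 ± 0.26 (limma adjusted p = 0.0657). The Sftpc spot was saturated on Irradiation 1, the array at 8.16, so its signal there is a lower bound and the size of this difference is not known exactly. Lamp3 was at 4.66 and 4.44 untreated and 4.91 and 4.78 irradiated, pairs that did not overlap, with a difference of 0.30 ± 0.13 (limma adjusted p = 0.127). The other Lamp3 probes above background on all arrays differed by -0.045 ± 0.25 and 0.03 ± 0.19 and were not called. Ager was at 5.34 and 5.44 untreated and 4.80 and 5.33 irradiated, again without overlap, with a difference of -0.33 ± 0.15 (limma adjusted p = 0.147).

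The array Irradiation 1 moved most of these values. Its Sftpb level was 2.71, against 3.62 to 4.49 on the other 23 arrays, and its replicate was at 4.09. With Irradiation 1 as the only irradiated array, Sftpb, Sftpc, Ager and Sftpa1 were called lower than untreated, with differences of -1.08, -1.17, -0.59 and -0.52 (limma adjusted p from 0.0016 to 0.0147), and 42.2% of all genes were called. The Sftpc value of these rests wholly on the saturated spot and overstates the fall by an unknown amount. With Irradiation 2 as the only irradiated array none of the 10 was called, the same differences were 0.30, -0.32, -0.06 and -0.03, and 0.808% of all genes were called. Lamp3 was less affected, at 0.36 with Irradiation 1 alone and 0.23 with Irradiation 2 alone. In these fits the lone array is assumed to vary like the other groups. Left without untreated 1, the Sftpc difference was -1.10 ± 0.28 and was called (limma adjusted p = 0.0443).

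In the 5 drug arms the same contrast gave 1 call among 50, where 0.0441% of all genes were called in the Ly arm, 2.81% in the Imatinib arm, 10.4% in the Su arm, 3.58% in the Ly+Imatinib arm and 3.38% in the Ly+Su arm. Aqp5 was 5.64 and 5.36 with Irradiation+Su and 6.10 and 6.17 with Su, groups that did not overlap, and the difference was -0.64 ± 0.11 (limma adjusted p = 0.00397), a 1.55-fold lower signal. Over the 4 fits that left out an array of these groups the difference ranged from -0.77 to -0.50, and the call was lost without Su 2 and without Irradiation+Su 2. It was also lost after quantile normalization (-0.41, limma adjusted p = 0.0561) and with normexp (-0.79, limma adjusted p = 0.0535). By its tested probe Abca3 was higher by 0.22 to 0.48 in the 5 drug arms. Its arrays did not overlap in 4 of them, the exception being Ly, yet no arm was called (limma adjusted p from 0.193 to 1). The second Abca3 probe above background on all arrays was higher by 0.24 to 0.50. It was called in the Imatinib arm only (0.50 ± 0.11, limma adjusted p = 0.0348, every probe tested). Pdpn was higher by 0.14 to 0.33 in the same 5 arms.

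No irradiation effect was shown to differ between drug arms. By the limma F test of the interaction none of the 10 genes was called, 1 had an unadjusted p under 0.05, and 1.07% of all genes were called. The share of all genes at that unadjusted threshold is not given, so the 1 is not a result about the 10 genes. Aqp5 came closest (F = 4.35, adjusted p = 0.174), followed by Lamp3 (F = 2.38, adjusted p = 0.34).

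Among irradiated lungs, those given drugs were compared with those given irradiation alone. All 8 calls among 50 were lower in the drug groups, and they fell on Lamp3, Aqp5 and Sftpd. Leaving out 1 array moved this count from 2, without Irradiation 1, to 21, without Irradiation 2, and 13 of those 21 were higher in the drug groups. The 5 comparisons share the 2 Irradiation arrays. The share of all genes called without 1 array is not given for them, so those counts are not a result about the 10 genes. Of all genes, 0.921% were called in Irradiation+Ly (0.26% lower), 13.3% in Irradiation+Imatinib (4.91% lower), 25.8% in Irradiation+Su (14.8% lower), 19.5% in Irradiation+Ly+Imatinib (8.47% lower) and 28.1% in Irradiation+Ly+Su (11.9% lower). In the same order 0, 1, 3, 2 and 2 of the 10 genes were called. The count of 8 is near the shares of all genes called in either direction and is not a result about the 10 genes. Irradiation shared its slide with Irradiation+Ly, where none of the 10 genes was called by limma, and the other 4 drug groups lay on other slides, so in all 8 calls drug and slide cannot be told apart.

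The highest Lamp3 level of the 12 groups was that of Irradiation, 4.91 and 4.78. Lamp3 was 4.61 and 4.57 in Irradiation+Ly, 4.38 and 4.47 in Irradiation+Imatinib, and 4.30 and 4.34 in Irradiation+Su. It was 4.57 and 4.19 in Irradiation+Ly+Imatinib and 4.21 and 4.24 in Irradiation+Ly+Su. The Irradiation arrays lay above all 10 arrays of irradiated drug groups. The differences were -0.42 ± 0.13 for Imatinib, -0.52 ± 0.13 for Su, -0.47 ± 0.13 for Ly+Imatinib and -0.62 ± 0.13 for Ly+Su (limma adjusted p of 0.0472, 0.0118, 0.0257 and 0.005). Irradiation+Ly differed by -0.26 ± 0.13 and was not called (limma adjusted p = 0.232). Without Irradiation 1 only the Ly+Su difference remained a call for Lamp3, at -0.56 ± 0.15 (limma adjusted p = 0.0394). After quantile normalization the 4 Lamp3 differences were -0.32 to -0.14, and none was called (limma adjusted p from 0.0867 to 0.446). With normexp only the Su difference was called, at -0.70 (limma adjusted p = 0.0356).

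Among unirradiated lungs the untreated group likewise had the highest Lamp3 mean, 4.55, with Ly and Su close to it at 4.53. Lamp3 was 4.66 and 4.44 untreated, 4.50 and 4.57 with Ly, 4.51 and 4.23 with Imatinib, and 4.55 and 4.51 with Su. It was 4.13 and 4.22 with Ly+Imatinib and 4.47 and 4.33 with Ly+Su. The Ly+Imatinib arrays lay below both untreated arrays, with a difference of -0.37 ± 0.13, which was not called (limma adjusted p = 0.149). In the order of the 12 Lamp3 means, the step of 0.26 from Irradiation to the next group, Irradiation+Ly, was larger than the pooled SD between replicates of 0.12, and no other step was.

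The Lamp3 calls rest on 1 probe. Of the other probes of the same transcript, a pair was above background on all 24 arrays and neither was called by limma in any irradiated drug group against Irradiation. Their differences ran from 0.14 to 0.44 for one and from -0.19 to 0.14 for the other, against -0.62 to -0.26 for the probe tested, so the probes disagree. The fourth Lamp3 probe was above background on no array.

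Cells other than type II cells also contain Lamp3 transcript. Of 8 mature dendritic cell markers tested, 1 fell in Irradiation+Su and none in the other 4 groups, and 1 rose in each of Irradiation+Su, Irradiation+Ly+Imatinib and Irradiation+Ly+Su, the list's summed level being 12.8 to 14.1 in Irradiation and 11.5 to 13.2 over the 5 irradiated drug groups. Of 13 macrophage markers, between 1 and 8 fell in each of the 5 comparisons and none rose, their summed level being 323.5 to 372.1 in Irradiation and 275.8 to 365.4 in the drug groups. None of these markers was below background on all arrays, and their part in the Lamp3 result was not tested.

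Aqp5 was 6.18 and 6.08 in Irradiation, 5.91 and 5.84 in Irradiation+Ly and 5.84 and 5.85 in Irradiation+Imatinib. It was 5.64 and 5.36 in Irradiation+Su, 5.76 and 5.63 in Irradiation+Ly+Imatinib and 5.75 and 5.73 in Irradiation+Ly+Su. Both Irradiation arrays lay above all 10 arrays of irradiated drug groups. Against Irradiation the difference was -0.63 ± 0.11 for Su, -0.43 ± 0.11 for Ly+Imatinib and -0.39 ± 0.11 for Ly+Su (limma adjusted p of 0.00217, 0.016 and 0.0185). For Imatinib (-0.29 ± 0.11) and Ly (-0.26 ± 0.11) it was not called. The Su difference was the steadiest of all single comparisons of these genes, being called under 12 of 13 other settings, from -0.87 to -0.42, and lost only when the groups were fitted alone with limma. Without Irradiation 1 it was -0.58 ± 0.12 (limma adjusted p = 0.0168), whereas the Ly+Imatinib and Ly+Su calls of Aqp5 were lost without that array, after quantile normalization and with normexp.

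Without irradiation Aqp5 was 6.11 and 6.21 untreated, 5.86 and 5.95 with Ly, 6.0 and 5.98 with Imatinib, and 6.10 and 6.17 with Su. It was 5.78 and 5.99 with Ly+Imatinib and 5.93 and 5.94 with Ly+Su. Su alone thus differed from untreated by -0.02 ± 0.11. The 3 groups that contained Ly differed by -0.28 to -0.22, without overlap and without a call. Imatinib alone, at 6.0 and 5.98, likewise lay below both untreated arrays and was not called. Aqp5 had the smallest spread between replicates of the 10 genes, a pooled SD of 0.09, and 3 of the 11 steps in the order of its group means exceeded it. Those were the steps from Irradiation (6.13) to Imatinib (5.99), from Irradiation+Imatinib (5.84) to Irradiation+Ly+Su (5.74), and from Irradiation+Ly+Imatinib (5.70) to Irradiation+Su (5.50).

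Sftpd, the collectin gene, was 6.85 and 7.03 in Irradiation and 6.40 and 6.33 in Irradiation+Su. The groups did not overlap, and the difference was -0.58 ± 0.19 (limma adjusted p = 0.0403). It was called in none of the 4 fits that left out an array of these groups, over which it ranged from -0.67 to -0.48 with adjusted p up to 0.161. It was called with normexp (-0.70, limma adjusted p = 0.0452) and not after quantile normalization (-0.49, limma adjusted p = 0.0754). Irradiation+Ly+Su (-0.53 ± 0.19, limma adjusted p = 0.0518) and Irradiation+Ly+Imatinib (-0.45 ± 0.19, limma adjusted p = 0.101) lay beyond the Irradiation arrays in the same direction and were not called.

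**Figure D4:**
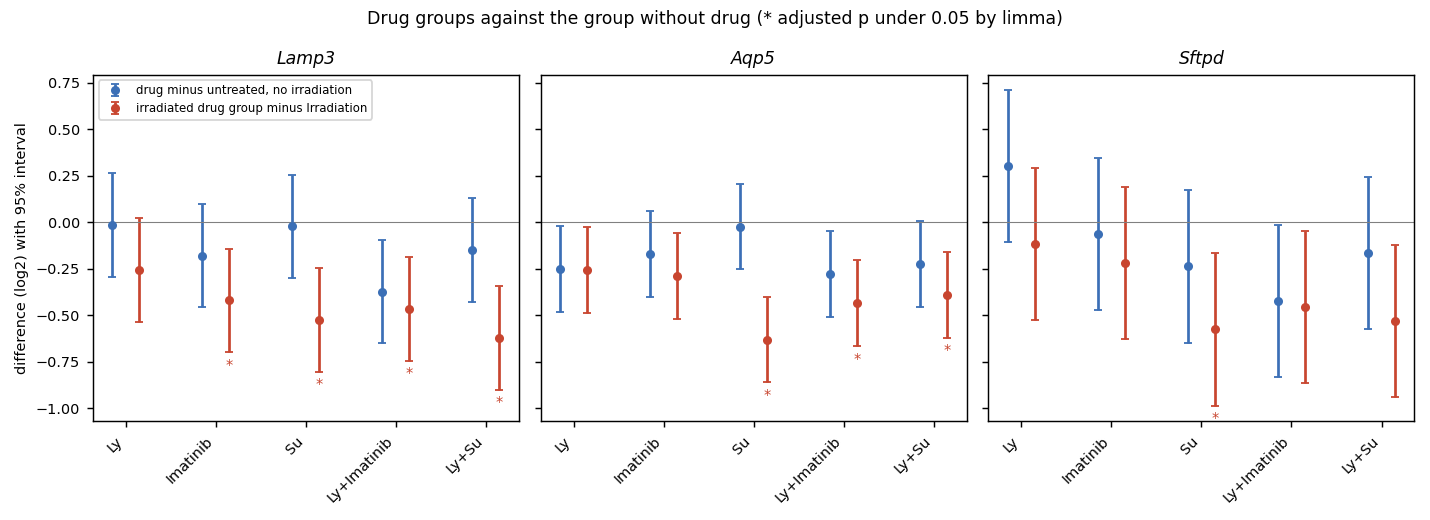
The vertical axis is the log2 difference with its 95% interval from limma, and the horizontal axis the drug group. Red points compare irradiated drug groups with Irradiation and blue points compare drugs without irradiation with untreated lungs, with 2 arrays in every group, and a star marks an adjusted p under 0.05. The 8 stars are all red and below 0, 4 for Lamp3, 3 for Aqp5 and 1 for Sftpd.

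Drugs without irradiation gave no call for the 10 genes by limma in 50 tests. With 2 arrays a group, that does not show an absence of change. Of all genes, 0.0049% were called with Ly, 0.333% with Imatinib, 2.72% with Su, 2.47% with Ly+Imatinib and 0.701% with Ly+Su. Untreated lungs and Ly shared a slide, and the other 4 drug groups lay on other slides. Of these tests, 10 had an unadjusted p under 0.05, and the smallest adjusted p was 0.149. Sftpc was lower than untreated in each of the 5 drug groups, with uncalled differences of -0.64 to -0.54, all against the same pair of untreated arrays, of which untreated 2 had the highest Sftpc level of the 24 arrays, 9.69. Imatinib and Su were compared directly in 4 settings (alone, with Ly, with irradiation, and with both). None of the 40 tests was called by limma, 1 had an unadjusted p under 0.05, the smallest adjusted p was 0.358, and 0.304% of all genes were called alone, 0.132% with Ly, 0.0784% with irradiation and 0% with both. In each setting Imatinib and Su shared a slide.

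The Sftpc probe was the brightest of the array in terms of signal, and its values need a further reading. Its unscaled log2 signal lay between 18.9 and 19.5 on all 24 arrays, with an SD of 0.13, whereas the median gene had an SD of 0.45. Scaling to the 75th percentile raised the SD of Sftpc to 0.27. The scaled level followed the brightness of the array closely, with r = -0.92 and Spearman's rho = -0.79 against the log2 75th percentile over 24 arrays, r = -0.76 without Irradiation 1 and untreated 2, -0.96 over the 12 unirradiated and -0.85 over the 12 irradiated arrays. Sftpa1, at rank 35, also fell with the array's brightness, with r = -0.73 and rho = -0.66, and r = -0.67 without the same pair of arrays. The rest of the 10 genes lay between r = -0.52 (Ager) and 0.24 (Lamp3). The 20 brightest genes had a median r of -0.61, against 0.02 over all genes tested. These correlations are descriptions, since the percentile is also the divisor of the scaled levels. The Sftpc spot was marked saturated on 1 array, Irradiation 1, and its mean signal was between 68.5% and 99.6% of the scanner's saturation value, with a median of 77.4%. Differences of Sftpc between groups are therefore differences near the upper end of the scanner's range, and the untreated values of 8.97 and 9.69 came from arrays with 75th percentile signals of 1192 and 703.6.

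**Figure D5:**
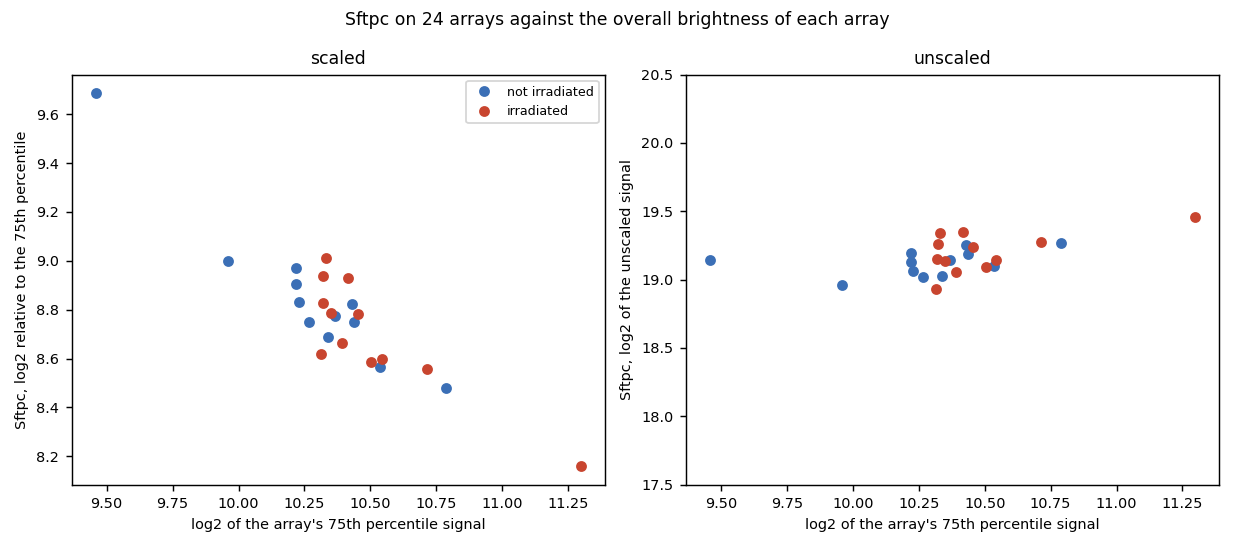
The horizontal axis in both panels is the array's 75th percentile signal on a log2 scale, and each point is 1 of the 24 arrays, blue without and red with irradiation. The left panel gives the scaled Sftpc level, which runs from 9.69 on the dimmest array to 8.16 on the brightest, and the right panel the unscaled log2 signal, which stays between 18.9 and 19.5.

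The genes whose scaled levels were most like that of Sftpc over the 24 arrays were Rplp1 (r = 0.94, rho = 0.88), Cbr2 (r = 0.94, rho = 0.88), Rplp0 (r = 0.93, rho = 0.85), Dcaf6 (r = 0.86, rho = 0.74) and Lyz2 (r = 0.86, rho = 0.71). Rplp1 and Rplp0 encode ribosomal stalk proteins and Lyz2 a lysozyme of macrophages and type II cells. Of these 5, 4 were among the 26 brightest genes and their scaled levels also fell with the array's brightness, with r from -0.93 to -0.85. Dcaf6, a gene of middle signal at rank 10375, fell with it as well (r = -0.81). For Ager they were Zfp787 (r = 0.88, rho = 0.86), Fkbp4 (r = 0.85, rho = 0.79), Zdhhc12 (r = 0.85, rho = 0.88), Zdhhc7 (r = 0.85, rho = 0.87) and Oma1 (r = 0.83, rho = 0.85). All of these values share the scaling of each array.

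Among the 10 genes themselves, high correlations were found both between and within the 2 cell types. Abca3, a type II gene, and Pdpn, a type I gene, had the highest correlation of the 45 pairs, r = 0.88 (rho = 0.81) over 24 arrays, 0.55 over the 12 unirradiated and 0.89 over the 12 irradiated arrays, and 0.82 without the 2 arrays of most extreme Abca3 level. Abca3 and Hopx had the lowest, r = -0.79 (rho = -0.83), with -0.73 without and -0.75 with irradiation. Sftpd and Lamp3 followed each other at r = 0.76 (rho = 0.82), with 0.69 and 0.86. Sftpa1 and Sftpc did so at r = 0.75 (rho = 0.70), with 0.67 and 0.83. These are descriptions over arrays that share the scaling and the groups.

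The surroundings of the 10 genes in surfactant metabolism and alveolar identity were described by lists of other genes in the averaged comparison, where 16.4% of all genes rose and 16.4% fell. Of 13 genes of surfactant processing, secretion and turnover, 4 rose and 2 fell, with a median difference of 0.15 against 0.01 for all genes, and with normexp 3 rose and none fell. The risers were Csf2rb2 (0.49 ± 0.16) and Csf2ra (0.35 ± 0.10), chains of the GM-CSF receptor through which alveolar macrophages mature to clear surfactant, and the lipid exporters Abcg1 (0.35 ± 0.08) and Abca1 (0.35 ± 0.07). These 4 are also macrophage genes, and 8 of 13 macrophage markers rose and none fell (Gpnmb by 1.28 ± 0.13, Trem2 by 1.05 ± 0.14, Mrc1 by 0.73 ± 0.12 and Cd68 by 0.68 ± 0.12). The part of macrophage RNA in this list was not tested.

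Of 16 genes of surfactant lipid synthesis, 5 rose and 2 fell, with a median of 0.14. Fabp5 (0.83 ± 0.14), a fatty acid carrier, Scd1 (0.62 ± 0.16), the desaturase that makes oleate, and Fasn (0.38 ± 0.11), fatty acid synthase, rose, and Chkb, a choline kinase, fell (-0.30 ± 0.06). With normexp 4 genes of this list rose and none fell. Of 17 other type II markers 5 rose and none fell, with a median of 0.20, led by Egfl6 (0.60 ± 0.12), Il33 (0.40 ± 0.12), Chil1 (0.39 ± 0.13) and Fasn. Fasn belongs to both lists. Relative to the median of all genes, the type II list stood at 0.20 with the 75th percentile, 0.29 after quantile normalization and 0.34 with normexp.

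Transcription factors were described in the same way. Of 15 factors of alveolar and lung epithelium none rose and 5 fell, with a median of -0.10. They included Grhl2 (-0.38 ± 0.05), Foxa2 (-0.26 ± 0.05), Tead1 (-0.21 ± 0.07) and Nkx2-1 (-0.16 ± 0.05), each called by limma with adjusted p from 0.000191 to 0.0458. Relative to the median of all genes, this list stood at -0.11 with the 75th percentile, -0.07 after quantile normalization and 0.08 with normexp, where 1 factor was called lower. Of 10 pan-epithelial genes none rose and 5 fell, with a median of -0.13, among them the keratins Krt18 (-0.31 ± 0.05) and Krt8 (-0.20 ± 0.06) and the adhesion genes Epcam (-0.26 ± 0.07) and Cldn7 (-0.23 ± 0.07). The list's median relative to all genes changed sign with normexp, to 0.05, and none of its genes was called there.

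Of 19 other type I markers 5 rose and 5 fell, with a median of -0.05. Cyp2b10 (-0.53 ± 0.17), Rasgrf1 (-0.52 ± 0.10) and Rtkn2 (-0.47 ± 0.08) fell, and Igfbp2 (0.45 ± 0.11), a marker of mature type I cells, rose. The list thus moved both ways, as Aqp5, Hopx and Pdpn did. Its median relative to all genes was -0.06 with the 75th percentile, 0.07 after quantile normalization and 0.19 with normexp. Of 13 genes of the transitional epithelial state seen in alveolar repair, 3 rose and 3 fell, with a median of 0.00. Itgb6 (0.86 ± 0.18), a subunit of the integrin that activates TGF-beta, Areg (0.77 ± 0.19), an EGF receptor ligand, and Lgals3 (0.26 ± 0.07) rose, while the keratins of that state, Krt8, Krt18 and Krt19, fell. With normexp 2 genes of this list rose and none fell, so that these keratin calls were lost, and its median relative to all genes was 0.25.

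Airway and other cell types gave the following values. Of 10 ciliated cell markers none rose and 6 fell, with a median of -0.30, led by Tppp3 (-0.60 ± 0.10), Tekt1 (-0.48 ± 0.08), Dynlrb2 (-0.46 ± 0.07) and Cfap126 (-0.37 ± 0.06). Of 9 club cell markers 4 fell (Scgb3a2 at -0.56 ± 0.12, Cyp4b1 at -0.50 ± 0.08 and Aldh1a1 at -0.27 ± 0.07 among them) and 1, the antimicrobial lectin Reg3g, rose by 1.22 ± 0.42. With normexp 3 ciliated markers fell, with the list's median relative to all genes at -0.14 in place of -0.31, and 2 club cell markers fell and none rose, with that median at -0.001 in place of -0.14. Of 12 endothelial markers 2 rose and 4 fell (Ramp2 at -0.51 ± 0.06, Tek at -0.46 ± 0.10 and Calcrl at -0.34 ± 0.07, with Car4 at 0.23 ± 0.04), and the median relative to all genes was -0.16, or 0.10 with normexp. Of 7 T cell markers 4 fell and none rose, with Cd8b1 at -0.72 ± 0.17, Cd8a at -0.60 ± 0.15, Nkg7 at -0.52 ± 0.13 and Lck at -0.46 ± 0.11, and 3 fell with normexp. Of 8 mature dendritic cell markers Il12b (1.15 ± 0.18, above background on 8 arrays) and Fscn1 (0.89 ± 0.14) rose and Birc2 fell (-0.26 ± 0.07), and none was called with normexp. Markers of several cell types thus differed at once in the averaged comparison, in which irradiation and slide cannot be told apart. The part of these cell types in the averaged differences of the 10 genes was not tested.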

How the data were processed

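Total RNA of mouse lung was labelled with Cy3 and hybridised to one-colour Agilent arrays, per the labels' protocols. The deposited values used here are each spot's processed signal, a background-subtracted intensity on a linear scale, written by Feature Extraction 9.1.3.1 per the file headers. The series table of values (unit score), deposited by the authors, equals these intensities after a constant factor and rounding, and served as an alternative. For this report log2(intensity) minus the log2 75th percentile of the array's 43379 non-control spots was used, 619 of 41174 probes with an outlier mark on any array were dropped, and the probe of highest mean stood for a gene. Genes well above background on both arrays of at least 1 group were tested (limma 3.58.1, R 4.3.3, 12 group means, 24 arrays, moderated variance, Benjamini-Hochberg adjustment over 20409 genes, threshold 0.05). The number of arrays limits the precision. P-values measure the spread between the 2 animals of a group, labelled biological replicates, pooled over the 12 groups. Both arrays of a group lay on the same slide, so the main fit leaves out the spread between slides. The fit was tested on simulated data. The 10 genes, the gene lists and the comparisons were chosen with earlier results of these data known. Named from the lists are up to 4 called genes of largest averaged difference, and for Sftpc and Ager the 5 genes of most similar level. Alternatives were background correction, normalization, filters, probes, slide, the replicate number as a block, the series table and each array left out. Replicate numbers did not pair the arrays.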

Additional observations from a re-analysis of the deposited data

How the results depend on the processing

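Over the 6 arms 4 of the 10 genes were called, 1 with normexp, 2 after quantile normalization, 0 with slide as a random block, 0 over slide means, 1 with both combination arms left out, and 2 to 4 in the fits that left out 1 array. The last 2 of these choices, and leaving out Irradiation 1 with Irradiation+Ly+Imatinib 1 (4 calls), were made after seeing the data. Of all genes, 6703 were called over the 6 arms, 1 over slide means, 2736 without the combination arms, 1664 with normexp and 3328 with slide as a random block, where the estimated correlation within a slide was 0.142. For Irradiation against untreated the count was 0, but 1 with only genes above background on all 24 arrays and 0 to 4 without 1 array, while all genes gave 2937 calls, 1435 with normexp, 1875 without the filter, 0 with the groups compared alone (1979 at an unadjusted p under 0.05), and 165 (without Irradiation 1) to 8618 (without Irradiation 2). For irradiation within the drug arms it was 1, and 3 with normexp (all higher), 0 after quantile normalization, 3 with array medians (all lower), 2 with the groups compared alone and 0 to 2 without 1 array. For irradiated drug groups against Irradiation it was 8, and 3 with normexp, 2 after quantile normalization (1 higher, 1 lower), 14 with array medians, 0 with the groups compared alone, 2 without the pair of arrays named above and 2 to 21 without 1 array. Without Irradiation 1 there were 2 calls, and without Irradiation 2 there were 21, of which 13 were higher in the drug groups. For Imatinib against Su it was 0, and 4 with normexp; for the interaction 0, and 0 to 2 without 1 array. Drugs alone against untreated gave 0 under every setting run, by limma, with 1 to 14 at an unadjusted p under 0.05. The gene lists held 82 calls, 41 with normexp and 71 to 97 without 1 array. The called differences of the 10 genes kept their sign in these settings where the median of all genes was not subtracted. The causes of these changes were not tested. Shares of all genes under each setting are not given here for the drug arms, the drug comparisons and the interaction. Counts of the 10 genes there are therefore not a result about them.

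The replicate numbers did not pair the arrays. Among 66 pairs of groups, same-numbered arrays deviated from their group means with a median correlation of 0.036 (-0.202 to 0.251). With the replicate block 4 genes were called over the 6 arms, 8 among irradiated drug groups, 1 within the drug arms and 0 in the other comparisons, as without it, and 6966 of all genes. A random slide block could be fitted only for the averaged comparison, since the 12 group means already contain the slides elsewhere. Ly against untreated, Irradiation+Ly against Irradiation and Imatinib against Su lie within slides as they stand. With 2 arrays a group, a difference of the size found here in a single comparison can rest on 1 array, and Sftpc near the scanner's ceiling limits what its differences can show.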
